A study of Mus musculus with 8 samples.

Results

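The 8 genes described here encode the classical MAP kinase phosphatases Dusp1, Dusp2, Dusp4, Dusp5, Dusp6, Dusp7, Dusp10 and Dusp16, chosen by gene symbol, and all 8 were found among the 55376 genes of the count table. The cells were cultured mouse dendritic cells of bone marrow (BMDCs), cells that present antigen to T cells. They had been stimulated overnight with heat-inactivated bacteria, either P. heparinolytica (PH) or P. melaninogenica (PM), both of the genus Prevotella. Poly(A) RNA was counted in 3 PH and 3 PM samples that carry the sample ids 1, 3 and 4 in both groups. The labels give no strain, genotype, age or sex of the mice, and there were no untreated cells, so each difference is between the 2 bacteria. They do not say whether a sample id is an animal or a culture, so the p-values below measure the spread between these samples, which may be technical.

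MAP kinases (ERK, JNK and p38) carry signals from Toll-like receptors and growth factor receptors to transcription factors and to proteins that control mRNA decay. They are active while a threonine and a tyrosine in their activation loop are both phosphorylated, and the dual-specificity phosphatases (DUSPs) remove both phosphates. Several Dusp genes are themselves induced by MAP kinase activity, which makes the phosphatases a negative feedback. In dendritic cells and macrophages they set how long cytokine genes stay on after contact with microbes. The members differ in place and in target. Dusp1, Dusp2, Dusp4 and Dusp5 are inducible nuclear enzymes, Dusp6 and Dusp7 are cytoplasmic and prefer ERK, and Dusp10 and Dusp16 prefer JNK and p38.

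The promoters of Dusp1, Dusp16 and Dusp5 are shown because they hold the only matches to the motifs in capitals, and because Dusp1 and Dusp16 were the most abundant members that were lower with PM. Each is the 250 bases before the RefSeq start site (GRCm38.p6), 5′ to 3′ on the gene's strand, at chr17:26508473-26508722 (minus strand) for Dusp1, chr6:134792629-134792878 (minus strand) for Dusp16 and chr19:53528895-53529144 (plus strand) for Dusp5. Capitals mark matches on either strand to the cAMP response element TGACGTCA, its half-site TGACG, which is part of the full element, or the CArG box of serum response factor.
Dusp1: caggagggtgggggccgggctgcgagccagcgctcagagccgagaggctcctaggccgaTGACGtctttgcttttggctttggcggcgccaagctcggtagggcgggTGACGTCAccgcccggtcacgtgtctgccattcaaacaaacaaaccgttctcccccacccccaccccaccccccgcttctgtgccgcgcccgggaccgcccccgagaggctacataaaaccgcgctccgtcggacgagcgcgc
Dusp16: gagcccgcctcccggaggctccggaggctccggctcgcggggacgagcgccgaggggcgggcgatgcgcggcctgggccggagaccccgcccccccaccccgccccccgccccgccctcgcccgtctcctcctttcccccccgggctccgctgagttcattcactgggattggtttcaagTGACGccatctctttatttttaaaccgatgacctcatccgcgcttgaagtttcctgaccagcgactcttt
Dusp5: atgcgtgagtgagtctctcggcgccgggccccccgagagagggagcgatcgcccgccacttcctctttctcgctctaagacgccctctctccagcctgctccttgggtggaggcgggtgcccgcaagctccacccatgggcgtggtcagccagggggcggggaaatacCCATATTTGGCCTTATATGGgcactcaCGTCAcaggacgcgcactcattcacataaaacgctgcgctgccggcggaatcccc
RefSeq windows were matched for 7 of the 8 members, all but Dusp4. The full element TGACGTCA was in 1 of the 7, Dusp1, at positions -143 to -136 from the start site, and 1.55% of all 32851 promoter windows of this length hold it. The half-site was in 3 of the 7 (17.8% of all windows), and in Dusp16 it lay at -70 to -66. The CArG box was in Dusp5 only, in 2 adjoining copies, against 1.47% of all windows. No window of the 7 matched the AP-1 site TGANTCA, the interferon-stimulated response element (GAAA, any 2 bases, GAAA) or the GAS element TTCNNNGAA (6.75%, 2.98% and 7.02% of all windows), while the loose kappa-B pattern (GGG, any 5 bases, CC) was in 6 of 7 and in 45.8% of all.

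The 3′ UTRs are shown for the AU-rich pentamer ATTTA, a signal for fast mRNA decay that p38 is known to counter. From GENCODE transcripts, the 30-base stretch with the most pentamers (capitals) of Dusp1, Dusp2, Dusp10 and Dusp16 reads as follows.
Dusp1: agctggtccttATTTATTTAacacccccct
Dusp2: aaattaATTTAattaattaATTTActatat
Dusp10: aaaaaacaaaaATTTATTTAaaaaatattt
Dusp16: ggtaagatgtaATTTATTTAagaatgaaaa
Dusp1 and Dusp2 had 4 pentamers each in 690 and 581 bases of 3′ UTR, or 5.80 and 6.88 per kilobase. Only 5.62% and 3.75% of 20894 genes were as dense as these. They were also the members with the longer core TATTTAT, 3 copies in Dusp1 and 1 in Dusp2, which 25.6% of all genes have. Dusp10 and Dusp16 had 3 pentamers, Dusp4 had 2, Dusp5 and Dusp6 had 1, and Dusp7 had 0.

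PH replicate 3 was the shallowest sample with 11624367 counts, and PH replicate 4 the deepest with 40233148. Levels are given in CPM, the count per 1000000 counts of a sample's TMM-adjusted total. In PH replicate 3 the predicted gene Gm42418 stood at 4029 CPM, against 878 to 1496 in the other 5 samples. The samples PM replicate 1 and PH replicate 3 match a library of a second sequencing run as well as one of the first. Of 10 dendritic cell markers, 9 were at or above 1 CPM in every sample, among them Itgax (133 to 178 CPM), Flt3 (44.2 to 61.2) and Zbtb46 (59.4 to 84.4), while Cd209a had 0 counts. The summed level of that list was 9842 to 11990 CPM with PH and 9515 to 11458 with PM. The neutrophil list (2 of 9 markers under 1 CPM throughout) summed to 471 to 589 CPM with PH and 363 to 512 with PM. The macrophage list (2 of 8 under 1 CPM throughout) summed to 1069 to 1532 and 1216 to 1704. In it Adgre1 (416 to 635 CPM), Csf1r (381 to 628) and Cd68 (263 to 453) were above Itgax in every sample. Mertk (3.60 to 5.95 CPM), Mrc1 (2.42 to 7.45) and C1qa (0 to 0.123) were low. Lymphocyte, stromal and erythroid or mast cell lists summed to at most 25.3, 153 and 62.6 CPM. With the sample id as a block, the neutrophil genes S100a8, S100a9 and Camp, the macrophage gene Fcgr1 and the costimulatory genes Cd80 and Cd86 were lower with PM, and the macrophage genes Cd68 and Mrc1 were higher. Of all tested genes 8.27% were called lower and 7.00% higher with the block. Fcgr1 was near the floor, at 0.777 to 1.72 CPM with PH and 0.590 to 1.00 with PM. The other tested neutrophil genes did not pass, and Elane leaned the other way (1.07 to 1.23 CPM with PH, 1.40 to 2.03 with PM). The other tested macrophage genes, Adgre1, Csf1r, Mertk and C1qb, did not pass either, and Mertk leaned lower (log2 fold change -0.37). Nor did 7 of the 9 tested dendritic cell markers pass. In bulk RNA fewer cells of a type and less RNA per cell cannot be told apart, and the part of these other cells in the values below was not tested.

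Dusp16 was lower with PM, and it was the only member called when PH and PM were compared without regard to sample id. That test called 1 member lower and 0 higher, against 1.64% of 14382 tested genes lower, 0.702% higher and 2.34% in either direction (edgeR quasi-likelihood test, adjusted p under 0.05). The sample ids paired the PH and PM samples in these data, and a fit with the id as a block called 6 of 8 members. It called Dusp1, Dusp2, Dusp6 and Dusp16 lower and Dusp4 and Dusp10 higher, where 8.27% of all genes were called lower and 7.00% higher, or 15.3% in either direction. Dusp5 and Dusp7 did not pass in either fit. Samples of the same id differed in the same direction in all 3 pairs for 7 members, 4 lower and 3 higher, where 22.0% of all genes were lower in all 3, 23.8% higher and 45.9% either. All 8 members passed the low-count filter. Their log2 fold changes of PM over PH ran from -0.40 (Dusp16) to 0.43 (Dusp10) with a median of -0.12, next to a median of 0.01 over all genes tested. DESeq2 with the block called 3 members, Dusp1, Dusp4 and Dusp16, and it called fewer of all tested genes than edgeR with the block. The numbers of all genes called under each setting are given in the last section. Without the 2 samples that match a second run, the unblocked test called Dusp6 and Dusp16. It also called more of all genes than with these samples kept. Values were then -0.24 for Dusp2 and Dusp7, 0.31 for Dusp5 and 0.37 for Dusp10. That setting compares PH ids 1 and 4 with PM ids 3 and 4, so differences between ids enter its values.

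**Figure D1:**
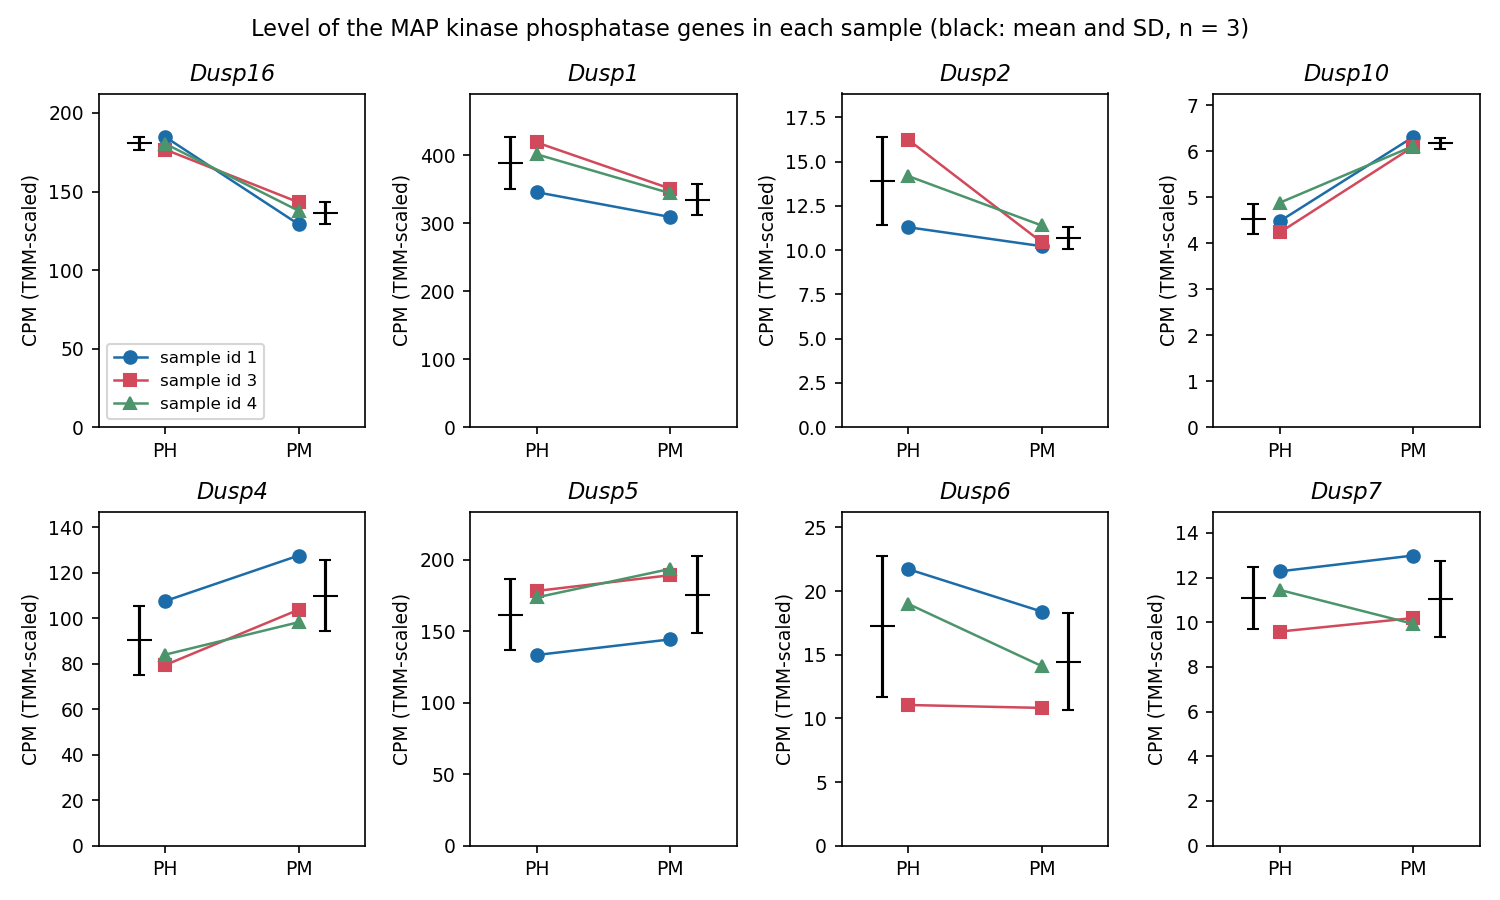
Level in CPM (TMM-scaled, linear axis from 0) of each of the 8 genes in the 3 PH and 3 PM samples; lines join samples of the same sample id, and black bars are the mean and SD (n = 3). Only Dusp16 (lower with PM) and Dusp10 (higher with PM) have groups that do not overlap, as for 19.4% of all tested genes in either direction. The ids of Dusp6 span 1.97-fold with PH.

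The members differed widely in level. Expressed per kilobase of exon, the level of Dusp1 was the highest of the 8 in every sample, followed by Dusp5, Dusp4 and Dusp16 in that order in all 6. Dusp1 averaged 164 ± 16.1 CPM per kilobase under PH and 141 ± 9.46 under PM (SD, n = 3). Dusp5 followed at 65.4 ± 9.97 and 71.1 ± 11.0, then Dusp4 at 33.0 ± 5.52 and 40.1 ± 5.70 and Dusp16 at 24.0 ± 0.531 and 18.2 ± 0.934. Neighbours among these first 4 did not overlap within either bacterium. Dusp2 (8.60 ± 1.54 and 6.61 ± 0.384) and Dusp6 (6.17 ± 1.98 and 5.16 ± 1.36) changed places between samples. Dusp7 (3.46 ± 0.429 and 3.44 ± 0.529) overlapped with Dusp6 under PM, and Dusp10 was the lowest in every sample (1.62 ± 0.117 and 2.21 ± 0.0427).

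Dusp1 thus supplied from 51.4% to 55.3% of the summed per-length level of the 8 genes with PH and from 48.0% to 49.8% with PM. The share of Dusp5 was 19.0% to 22.5% with PH and 21.5% to 26.5% with PM, and that of Dusp16 was 7.35% to 8.65% and 6.21% to 6.40%. The sum itself was 284, 320 and 315 CPM per kilobase in PH replicates 1, 3 and 4 and 272, 297 and 295 in the PM samples of the same ids. Shares of a sum are not independent of each other, and no test was made on them.

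**Figure D2:**
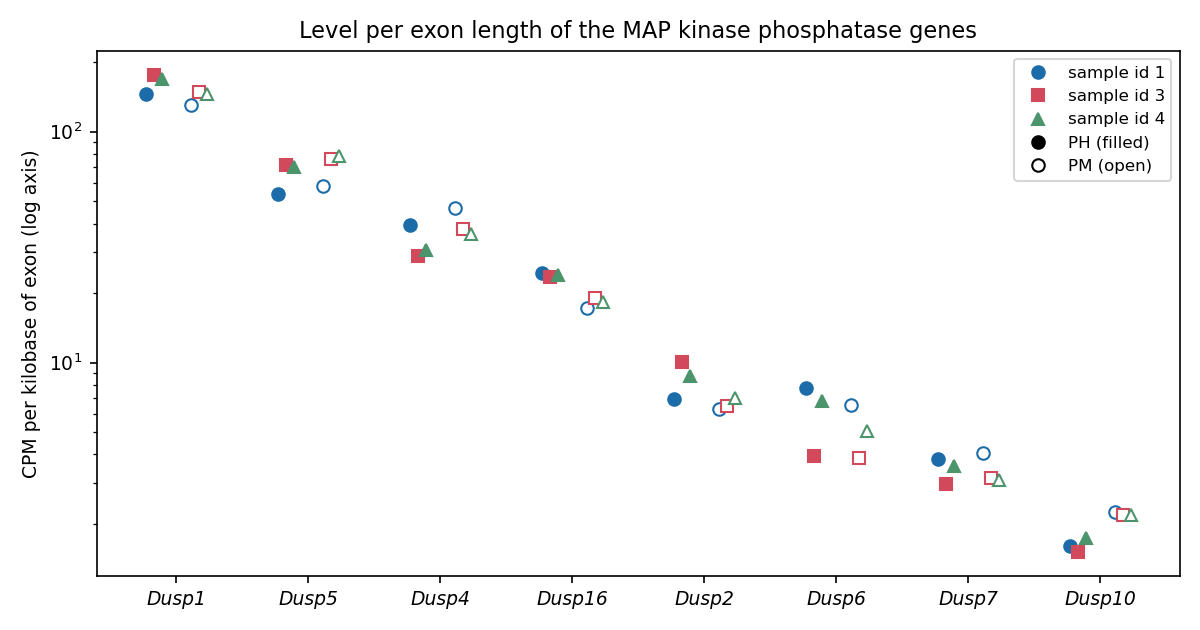
CPM per kilobase of exon (log axis) of the 8 genes, ordered by their mean with PH, with filled points for PH, open points for PM and symbols for the sample id. Dusp1 stands at 130 to 177 and Dusp10 at 1.52 to 2.26, and the order of the first 4 genes is the same in all 6 samples.

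Dusp1, the nuclear phosphatase of p38 and JNK that restrains inflammatory cytokine output, lies on chromosome 17 (26505590 to 26562128, minus strand, GRCm38, as in the deposited table). The RefSeq start site of the promoter shown, 26508472, lies inside this span and not at its upstream end. Dusp1 was at 345.9, 419.1 and 401.7 CPM in PH replicates 1, 3 and 4 and at 309.4, 351.2 and 344.4 CPM in PM replicates 1, 3 and 4. Each PM sample was below the PH sample of its id, but the groups overlapped, since PH replicate 1 was below PM replicate 3. PM over PH gave a log2 fold change of -0.21 ± 0.09 (SE), or 13.8% lower, with edgeR adjusted p = 0.347. With the id as a block it was -0.21 ± 0.05 with adjusted p = 9.9e-04 in edgeR, and the call held when each id was left out in turn (adjusted p up to 0.0405). Without the 2 samples that match a second run, the unblocked value was -0.11 with edgeR adjusted p = 0.537. Id 1 then remained in PH only and id 3 in PM only, so differences between ids enter that value. These values rest on 4853 to 16144 counts per sample.

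Dusp2, a nuclear phosphatase of activated immune cells (chromosome 2, 127336159 to 127338376, plus strand), was far less abundant. Its levels were 11.3, 16.2 and 14.2 CPM in PH replicates 1, 3 and 4 and 10.2, 10.5 and 11.4 CPM in the PM samples. It was lower with PM in 3 of 3 pairs, and PH replicate 1 was just under PM replicate 4, so the groups overlapped. The log2 fold change of -0.36 ± 0.13 (SE) had edgeR adjusted p = 0.274, or 0.00675 with the block. The pairs differed in size, from -0.14 for id 1 to -0.64 for id 3, the pair with the shallowest sample (188 counts of Dusp2). Without id 3 the blocked value was -0.25 with edgeR adjusted p = 0.143, and DESeq2 with the block gave adjusted p = 0.0986.

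Dusp4, a nuclear phosphatase of ERK and JNK (chromosome 8, 34807297 to 34819894, plus strand), went the other way. It was at 107.6, 79.4 and 84.0 CPM in PH replicates 1, 3 and 4 and at 127.6, 103.8 and 98.3 CPM in PM replicates 1, 3 and 4. Samples of id 1 were the highest under both bacteria, and each PM sample was above its PH partner. On the log2 scale the change was 0.28 ± 0.13 (SE) with edgeR adjusted p = 0.422, and 0.28 ± 0.05 with adjusted p = 1.1e-04 in edgeR with the block. The blocked call held when each id was left out in turn, with adjusted p up to 0.0188. The unblocked value was 0.15 without PM replicate 1, and 0.07 (edgeR adjusted p = 0.796) without the 2 samples that match a second run. Both settings keep id 1 in PH only, and the second also keeps id 3 in PM only, so differences between ids enter these values. The pairs gave 0.25, 0.39 and 0.23 for ids 1, 3 and 4.

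Dusp5, a nuclear phosphatase with a preference for ERK (chromosome 19, 53529109 to 53542431, plus strand), was at 133.4, 178.2 and 173.7 CPM in the PH samples and 144.3, 189.2 and 193.6 CPM in the PM samples. All 3 pairs were slightly higher with PM, by 0.09 to 0.16 on the log2 scale, while id 1 was well below ids 3 and 4 under both bacteria. The log2 fold change of 0.12 ± 0.14 (SE) did not pass (edgeR adjusted p = 0.781), nor did 0.12 ± 0.05 with the block (0.0837). With the block and plain library totals for scaling it passed, with edgeR adjusted p = 0.0311. Without PH replicate 1 the unblocked fold change was -0.01. Exons of AC137853.2 on the opposite strand cover 22.1% of the exon length of Dusp5, and no source used here gives the strand setting of the counting. That gene held 8 to 34 counts per sample, against 2063 to 7544 of Dusp5.

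Dusp6, the cytoplasmic ERK phosphatase that is a standard readout of ERK activity (chromosome 10, 99263231 to 99267489, plus strand), varied most between sample ids. It was at 21.7, 11.1 and 19.0 CPM in PH replicates 1, 3 and 4 and at 18.4, 10.8 and 14.1 CPM in PM replicates 1, 3 and 4. Id 3 was the lowest under both bacteria, and the ids spanned 1.97-fold with PH and 1.70-fold with PM. Unblocked, the log2 fold change was -0.30 ± 0.24 (SE) with edgeR adjusted p = 0.675, and -0.27 ± 0.08 with 0.0213 with the block. All pairs were lower with PM, by -0.24 for id 1, -0.03 for id 3 and -0.43 for id 4. Without id 4 the blocked value was -0.16 with edgeR adjusted p = 0.487. DESeq2 with the block gave adjusted p = 0.275. Without the 2 samples that match a second run, which left only id 4 in both groups, it was -0.70 with edgeR adjusted p = 0.0266.

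Dusp7, the close relative of Dusp6 that also acts on ERK in the cytoplasm (chromosome 9, 106368632 to 106375724, plus strand), did not differ measurably. It was at 12.3, 9.59 and 11.4 CPM in PH replicates 1, 3 and 4 and at 13.0, 10.2 and 9.93 CPM in the PM samples. Ids 1 and 3 were higher with PM and id 4 was lower. The log2 fold change was -0.03 ± 0.14 (SE, edgeR adjusted p = 0.950), and -0.04 ± 0.09 with the block (0.860). Its sign turned when id 4 was left out of the blocked fit (0.08).

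Dusp10, a phosphatase of JNK and p38 found in nucleus and cytoplasm (chromosome 1, 184034381 to 184075636, plus strand), was the least abundant member and had the largest fold change upward. It was at 4.48, 4.23 and 4.88 CPM in PH replicates 1, 3 and 4 and at 6.31, 6.09 and 6.11 CPM in PM replicates 1, 3 and 4. The groups did not overlap, as for 10.1% of all genes in this direction. The log2 fold change was 0.43 ± 0.12 (SE), with edgeR adjusted p = 0.132, or 0.0155 with the block. The value rests on 49 to 238 counts per sample. The blocked call was lost whichever id was left out (edgeR adjusted p = 0.0597, 0.0892 and 0.0516 without ids 1, 3 and 4), and DESeq2 with the block gave adjusted p = 0.216.

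Dusp16, a phosphatase that acts mainly on JNK and shuttles between cytoplasm and nucleus (chromosome 6, 134715468 to 134792625, minus strand), gave the firmest difference of the family. It was at 184.7, 176.7 and 180.4 CPM in PH replicates 1, 3 and 4 and at 129.1, 143.1 and 137.7 CPM in PM replicates 1, 3 and 4. Every PM sample was below every PH sample, as for 9.28% of all genes in this direction, and the ids spanned only 1.05-fold with PH and 1.11-fold with PM. The log2 fold change was -0.40 ± 0.06 (SE), or 24.3% lower, with adjusted p = 0.011 by edgeR. It was -0.40 ± 0.05 with adjusted p = 1.5e-07 with the block in edgeR, and the blocked call held when each id was left out. Without the block the call was lost without PH replicate 4 (adjusted p = 0.0749) or PM replicate 4 (0.0695), at fold changes of -0.40 and -0.41. Without PH replicate 3 it was -0.42 with edgeR adjusted p = 0.0367.

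**Figure D3:**
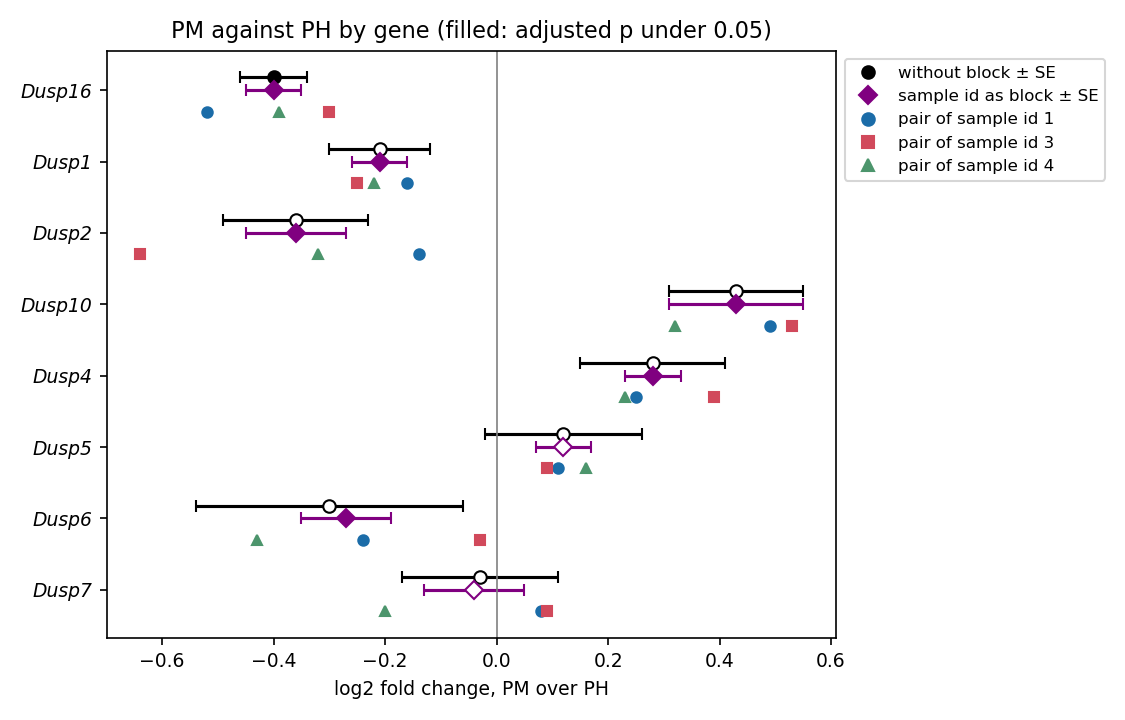
Log2 fold change of PM over PH for each gene: circles are the fit without a block and diamonds the fit with the sample id as a block, both with SE bars, and small symbols are the log2 ratios of the 3 pairs. Filled symbols passed an adjusted p of 0.05; Dusp16 is the only filled circle, and the bars of Dusp4 and Dusp6 shrink from 0.13 to 0.05 and from 0.24 to 0.08 with the block.

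Members of a kind did not all get the same call in the blocked fit, and whether their changes differ from each other was not tested. Among the JNK and p38 phosphatases Dusp16 and Dusp1 were lower and Dusp10 higher with the block, and among the ERK phosphatases Dusp6 was lower while Dusp5 and Dusp7 did not pass. Among the 4 inducible nuclear enzymes Dusp1 and Dusp2 were lower and Dusp4 higher. The blocked calls of Dusp2, Dusp6 and Dusp10 are weak. They were lost without id 3 for Dusp2, without id 4 for Dusp6 and without any 1 id for Dusp10, and each with DESeq2. The 2 members with TATTTAT in the 3′ UTR, Dusp1 and Dusp2, were both lower with the block, but so were Dusp6 and Dusp16 with 0 copies. The half-site TGACG was in the promoter windows of Dusp1 and Dusp16, which were lower, and of Dusp5, which did not pass. It was absent from the windows of Dusp2 and Dusp6, also lower, and from those of Dusp7 and Dusp10, and Dusp4 had no window. These motifs were chosen after the values were seen, and a link between them and the changes was not tested.

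The genes with the most similar level pattern over the 6 samples were sought among 10043 other tested genes at a mean of at least 5 CPM, by Pearson's r of log2 CPM. For Dusp16 these were Upf2 (r = 0.997), an mRNA decay factor, and Gbp7 (0.996) and Irgm2 (0.993), GTPases induced by interferon. For Dusp1 they were Pdlim4 (0.998), Nsd2 (0.993) and Cyth3 (0.992), and for Dusp2 they were Cdc25a (0.991), Tcf19 (0.988) and the JNK gene Mapk9 (0.987). Dusp4 was followed most closely by Pwp2 (0.998), Pdgfb (0.997) and Atp6v0a2 (0.997), and Dusp10 by Tnfsf12 (0.999), Gga1 (0.997) and Tmbim1 (0.995). For Dusp5 the nearest was Satb1 (0.997), for Dusp6 Ano6 (0.994) and for Dusp7 Mgat5 (0.998). With so few samples and so many genes, values near 1 arise for any gene, and samples share the treatment and the id, so these are descriptions only.

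Other phosphatases of the DUSP family changed in part. Of the classical members outside the 8, Dusp8 and Dusp9 were at 1.49 ± 0.312 and 1.46 ± 0.235 CPM with PH and 1.45 ± 0.245 and 1.36 ± 0.363 with PM (SD, n = 3), and neither passed. Of 16 atypical DUSPs, which lack the MAP kinase-binding domain, 11 were tested, 1 was higher and 0 lower, and 3 were higher and 1 lower with the block. All tested genes were higher in 0.702% and lower in 1.64% without the block, and in 7.00% and 8.27% with it. Dusp13 passed without the block, with a mean of 1.57 ± 0.0897 CPM under PH, 2.95 ± 0.140 under PM and a log2 fold change of 0.90 ± 0.17 (SE, edgeR adjusted p = 0.0286). Leaving out any sample except PM replicate 1 ended that call (adjusted p = 0.0797 to 0.144). Exons of genes on the other strand overlap Dusp13 over 10.4% and Dusp3 over 12.9% of their length. With the block Dusp18 (0.61 ± 0.12) and Dusp3 (0.25 ± 0.05), a phosphatase of ERK and JNK, were also higher and Dusp14 (-0.51 ± 0.07) lower (edgeR adjusted p = 4.5e-04, 6.6e-04 and 1.8e-06).

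These phosphatases act on the MAP kinases. Of 14 MAP kinase genes 11 were tested and 0 passed (edgeR, adjusted p under 0.05), with a median log2 fold change of -0.01. Only 2.34% of all tested genes passed, so 0 of 11 cannot show that these kinases changed less than other genes. At an unadjusted p under 0.05 in edgeR, 2 of the 11 passed, against 1890 of all 14382 tested genes. DESeq2, which called more of all genes than edgeR, called 0 of the 11. With the block 1 of the 11 passed, against 15.3% of all tested genes. It was Mapk3, which encodes ERK1, higher at 297.7 ± 28.0 CPM under PH and 341.2 ± 16.1 under PM (0.20 ± 0.05 SE, edgeR adjusted p = 0.00218). The JNK genes Mapk8 (-0.21 ± 0.08) and Mapk9 (-0.09 ± 0.05) and Nlk (-0.12 ± 0.06) did not pass with the block (edgeR adjusted p = 0.0639, 0.320 and 0.220).

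Upstream of them, 2 of 24 kinase and adaptor genes were lower with PM and 0 higher, with a median of -0.06. The shares over all tested genes were 1.64% and 0.702%, or 8.27% and 7.00% with the block. Map2k1, the kinase that activates ERK, averaged 209.5 ± 8.23 CPM under PH and 171.3 ± 2.32 under PM (-0.29 ± 0.06 SE on the log2 scale, edgeR adjusted p = 0.0407). Map3k8 (Tpl2), which activates Map2k1 after Toll-like receptor signals, was at 26.9 ± 0.166 and 21.1 ± 1.24 CPM, a change of -0.35 ± 0.07 (edgeR adjusted p = 0.0449). The call of Map3k8 was lost whichever of the 6 samples was left out, that of Map2k1 for any except PM replicate 1, and both with plain library totals for scaling (edgeR adjusted p = 0.0767 and 0.0628). With the block 5 were lower and 1 higher, among them Map3k5, a kinase of the JNK and p38 routes (-0.46 ± 0.08, edgeR adjusted p = 1.4e-04), and Map2k2 (0.18 ± 0.05, 0.0171). The blocked call of Map2k2 was lost without id 1 (0.09, edgeR adjusted p = 0.254), without id 3 (0.0923) and with DESeq2 (0.107). Of 10 kinases downstream of ERK and p38, 0 passed by edgeR and 0 by DESeq2, with a median of 0.05. At an unadjusted p under 0.05 in edgeR, 1 of the 10 passed, against 1890 of all 14382 tested genes. With the block Mapkapk2, which stabilises cytokine mRNAs under p38, was lower (-0.21 ± 0.05, edgeR adjusted p = 0.00107) and Rps6ka2 higher (0.29 ± 0.05, 2.1e-04), while Rps6ka1 (-0.13) and Mknk1 (0.07) did not pass.

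Other inhibitors of ERK signalling changed in both directions. Of 15 listed 14 were tested and 0 passed by edgeR, with a median of -0.01, while DESeq2 called 1. At an unadjusted p under 0.05 in edgeR, 3 of the 14 passed, against 1890 of all 14382 tested genes. With the block 2 were lower and 2 higher, against 8.27% and 7.00% of all tested genes. Spred1 and Spred2, which block activation of Raf, changed by -0.30 ± 0.05 and -0.31 ± 0.07 (SE, edgeR adjusted p = 4.9e-05 and 0.00108), and the G protein regulators Rgs2 and Rgs1 by 0.27 ± 0.06 and 0.15 ± 0.05 (8.9e-04 and 0.0444). The blocked call of Rgs1 was lost without id 3 (0.13, edgeR adjusted p = 0.268), without id 4 (0.08, 0.566), with DESeq2 (0.175), with DESeq2 size factors (0.0542) and with a filter of 1 CPM in 3 samples (0.0587).

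Immediate early genes are switched on by MAP kinases through transcription factors such as Elk1 and AP-1. Among 23 tested 1 was lower and 0 higher (1.64% and 0.702% of all tested genes), with a median of -0.03. Fosl2, an AP-1 subunit, averaged 201.0 ± 13.6 CPM under PH and 159.2 ± 1.91 under PM (-0.34 ± 0.07 SE on the log2 scale, edgeR adjusted p = 0.0364). Leaving out either replicate 1 or 4 of PH, or 3 or 4 of PM, ended that call (adjusted p = 0.103 to 0.191). With the block 5 were lower and 5 higher, against 8.27% and 7.00% of all tested genes. Fos, at 18.9 ± 4.66 and 32.6 ± 6.25 CPM, and Egr2, at 44.2 ± 8.90 and 62.8 ± 11.0 CPM, were higher with PM (0.78 ± 0.08 and 0.51 ± 0.06, edgeR adjusted p = 1.4e-08 and 2.1e-08 with the block). The early gene Ier3 was lower (-0.23 ± 0.05, 6.5e-04).

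In the blocked fit, transcripts with AU-rich elements were mostly lower with PM, although Plaur was higher. The genes of the binding proteins Zfp36, Zfp36l1 and Zfp36l2 were higher, and Elavl1 did not pass. Of 17 tested genes of both kinds 4 were lower and 1 higher (1.64% and 0.702% of all tested genes), with a median of -0.37. With the block 11 were lower and 4 higher, against 8.27% and 7.00% of all tested genes. These genes were picked as targets of p38 and of Dusp1, and most are cytokine genes already known to differ in these samples, so their count is not independent evidence. Ptgs2, the inducible cyclooxygenase, averaged 625.7 ± 83.5 CPM under PH and 416.5 ± 54.2 under PM (-0.59 ± 0.12 SE, edgeR adjusted p = 0.0448). Il23a, Il6 and Il10 were lower by edgeR as well (-1.51, -0.67 and -0.63). The gene higher without the block was Zfp36l2, whose protein binds AU-rich elements and speeds mRNA decay. Zfp36l2 was at 30.2 ± 2.61 and 42.1 ± 4.10 CPM (0.47 ± 0.09, edgeR adjusted p = 0.0380). The count of 5 dropped to 1 when PM replicate 4 was left out, to 2 for PM replicate 3 or either of PH replicates 3 and 4, and to 3 for replicate 1 of either group.

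Among 13 targets of CREB and of the glucocorticoid receptor, both known inducers of Dusp1, 1 was higher and 0 lower (0.702% and 1.64% of all tested genes). Their median was 0.03. Sgk1, a kinase gene induced by glucocorticoids, averaged 197.0 ± 25.2 CPM under PH and 281.2 ± 27.1 under PM (0.51 ± 0.11 SE, edgeR adjusted p = 0.0485), and its call was lost with a filter of 1 CPM in 3 samples (0.0545), with DESeq2 size factors (0.0508) and whichever of the 6 samples was left out (0.0555 to 0.198). With the block the nuclear receptor gene Nr4a3 was higher too (0.34 ± 0.05, edgeR adjusted p = 1.5e-06), while Nr4a1 (0.23 ± 0.08) and Pde4b (-0.13 ± 0.05) had adjusted p = 0.0502 and 0.0595 by edgeR with the block.

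**Figure D4:**
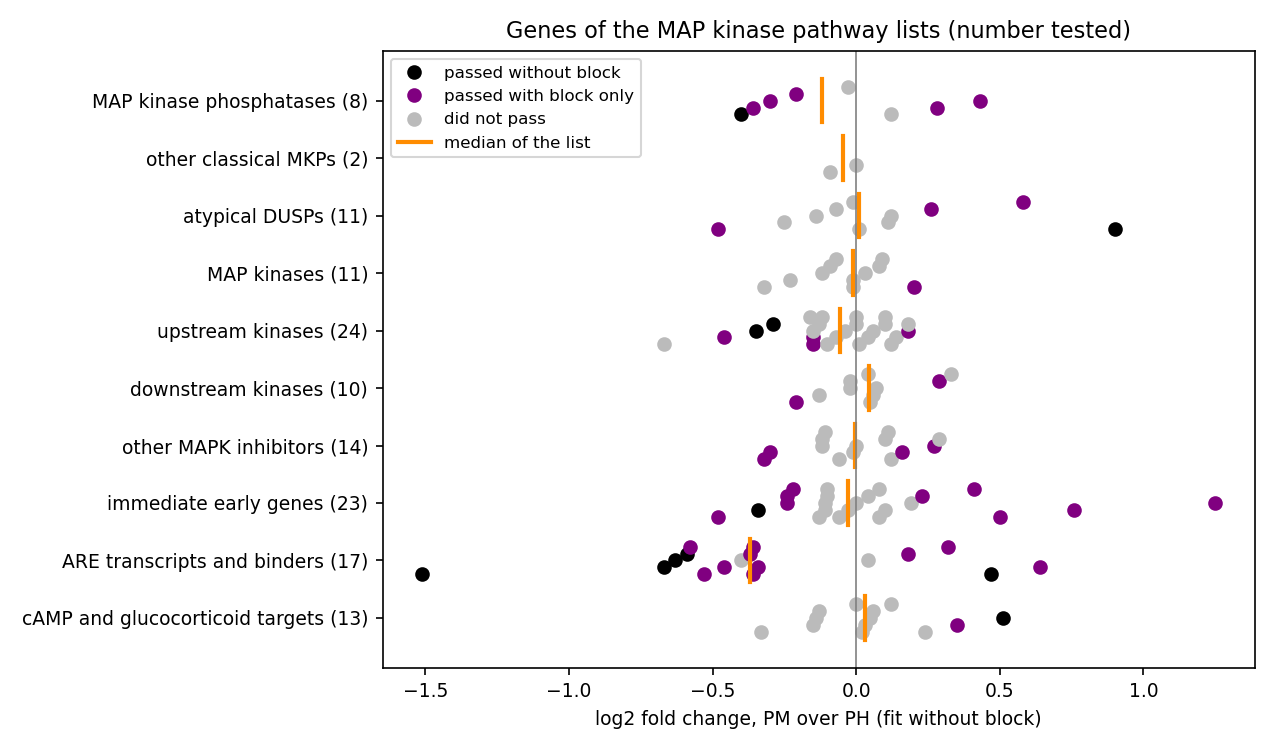
Log2 fold change of PM over PH (fit without block) for each tested gene of the 8 phosphatases and of 9 lists of related genes, with the number tested in parentheses; black points passed without the block, purple points only with it, and the orange bar is the list's median. List medians lie between -0.12 and 0.05 except for transcripts with AU-rich elements and their binding proteins at -0.37.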

How the data were processed

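Bulk mRNA-seq counts of 6 samples (3 PH, 3 PM) were taken from the deposited table of whole-number counts per gene, used as deposited by the authors. The tools named per the submitters' processing notes are featureCounts 1.6.4, STAR 2.5.3a and Trimmomatic, with build GRCm38. The sources used here do not give the annotation release, strand setting or treatment of multi-mapped reads. The labels list 8 libraries, 2 of them from a run 2 of samples that also have a first run; whether the columns of PM replicate 1 and PH replicate 3 hold 1 run or both is not known. No 2 columns agree within sampling noise over the 15 pairs. Every row has a gene name, and no count column was left unmapped.

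The test was edgeR's robust quasi-likelihood test (edgeR 4.0.16, R 4.3.3) on these counts, with TMM scaling, filterByExpr (minimum count 10, 14382 genes kept) and Benjamini-Hochberg adjustment over all genes tested, with a threshold of 0.05. The code was tested on simulated counts. The fit without a block was the main test. Deviations from the group means correlated at 0.44, 0.32 and 0.24 between PH and PM samples of ids 1, 3 and 4, and at -0.35 to 0.07 between different ids, so samples of 1 id were treated as pairs, and values with the id as a block stand beside the others. Because deviations cancel within a group, the values between different ids are not an independent check of the pairing. Alternatives were DESeq2 1.42.0, other scalings and filters, and leaving out samples. The block combined with each other scaling, with the filter of 1 CPM in 3 samples and with DESeq2 was chosen after seeing the data. All 8 members were named. In each other list, genes that passed without the block were named, then those with the smallest adjusted p with the block up to 4. Total counts of 11624367 to 40233148 limit the precision of the rarest members. The members and gene lists were chosen with earlier results of these data known, and the promoter and 3′ UTR motifs after the values were seen. Promoter sequences are from RefSeq (GRCm38.p6) and UTRs from GENCODE M21.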

Additional observations from a re-analysis of the deposited data

How the results depend on the processing

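Of 160 values of the 8 phosphatases under other settings, 118 kept direction and side of the threshold, 35 came to pass it, 2 no longer passed and 5 changed sign; of 700 values of other named genes these numbers were 487, 145, 54 and 14. The sample id as a block raised the number of genes called from 337 to 2197, of the 8 phosphatases from 1 to 6, of atypical DUSPs from 1 to 4, MAP kinases from 0 to 1, upstream kinases from 2 to 6, downstream kinases from 0 to 2, other inhibitors from 0 to 4, immediate early genes from 1 to 10, AU-rich transcripts from 5 to 15 and cAMP and glucocorticoid targets from 1 to 2. In the same order, the block with DESeq2 gave 1227, 3, 4, 1, 3, 2, 3, 7, 15 and 2; with DESeq2 size factors 2182, 6, 4, 1, 6, 2, 3, 10, 15 and 3; with a filter of 1 CPM 2143, 6, 4, 1, 6, 2, 3, 9, 15 and 3; and with library totals 2249, 7, 4, 1, 5, 2, 4, 10, 15 and 3. Without each id in turn the blocked counts were 1529 to 2145 (1580 without id 3), 4 to 5, 4, 1, 4 to 6, 2 to 3, 3 to 4, 7 to 10, 14 to 15 and 2 to 3.

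Without the block, leaving out 1 sample gave 142 to 417 genes called, 0 to 1 phosphatases, 0 to 1 atypical DUSPs, 0 to 2 upstream kinases, 0 to 2 immediate early genes, 1 to 3 AU-rich transcripts and 0 to 1 cAMP and glucocorticoid targets. Testing every gene with a count gave 846 genes called, 2 phosphatases, 4 atypical DUSPs, 1 downstream kinase, 2 inhibitors, 4 immediate early genes and 2 cAMP and glucocorticoid targets. DESeq2 gave 584 genes called, 1 inhibitor and 2 immediate early genes. Library totals gave 0 upstream kinases, and DESeq2 size factors or the 1 CPM filter 0 cAMP and glucocorticoid targets. Leaving out the 2 samples that match a second run set PH ids 1 and 4 against PM ids 3 and 4. There were then 629 genes called, 2 phosphatases, 0 atypical DUSPs, 1 downstream kinase, 2 inhibitors and 4 immediate early genes. The cause of these shifts was not tested.

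Signs changed for values near 0. Without the block, leaving out 1 sample gave Dusp5 values from -0.01 (PH replicate 1) to 0.24 (PM replicate 1), and leaving out both samples that match a second run gave 0.31. Dusp7 was 0.08 with the block and without id 4, and 0.03, 0.02 and 0.04 without PH replicate 1, PM replicate 3 and PM replicate 4, but -0.17 without PM replicate 1 and -0.24 without the 2 samples that match a second run. Dusp8 was -0.01 with DESeq2, DESeq2 size factors or the 1 CPM filter, -0.06 with the block, the block with DESeq2 size factors or without id 3, -0.15 with the block without id 1 and without PM replicate 3, -0.14 without PH replicate 1 (0.10 without PH replicate 3, 0.14 without the 2 samples that match a second run), and -0.05, -0.07 and -0.03 with the block and DESeq2, the 1 CPM filter and library totals. Dusp9 was 0.11 with the block without id 3 and 0.05 without PM replicate 3, against -0.29 without PM replicate 1 and -0.35 with the block without id 1. Among the 8 phosphatases the lowest count was 49, for Dusp10 in PH replicate 3, while Dusp8, Dusp9 and Dusp13 had 21, 20 and 17 there.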
